A study of Homo sapiens with 18 samples.

Results

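The 37 genes described here encode the machinery of macroautophagy and the receptors that mark mitochondria for it. They were taken by symbol from the table of 28277 genes, and each of the 37 has a row in it. In the table, 36 of them had enough reads to be tested, among 14938 genes tested in all, and the remaining one, MAP1LC3A, had between 0 and 11 counts per library. The libraries are bulk RNA-seq of OVCAR3-KRAB cells, an ovarian cancer cell line that carries dCas9-KRAB, which binds DNA without cleaving it and brings a repressor to the site. The sgCtl cells carry a guide against the Gal4 promoter, while sgXIST7 and sgXIST9 are knockdown (KD) cells whose guides target the promoter of XIST, the noncoding RNA that silences an X chromosome. Each was kept in normoxia or at 1% oxygen for 24 h, with 3 libraries in each of the 6 groups and 18 in all. Cells of each guide were clonal, so that the guide and the clone cannot be told apart. P-values here measure the spread between these libraries only.

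In macroautophagy a double membrane, the phagophore, grows around cytoplasm or an organelle, closes into an autophagosome and fuses with a lysosome. A kinase complex around ULK1 starts it, a lipid kinase complex around PIK3C3 marks the membrane, ATG2 and ATG9 proteins supply lipid, and conjugation enzymes attach the small ATG8 proteins to it, which cargo receptors then bind. When mitochondria are the cargo the process is called mitophagy, and BNIP3 and BNIP3L, receptors on their outer membrane, are known targets of the hypoxia-inducible factors (HIF).

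Total counts ranged from 11794375 to 24906936 per library, and the 37 genes together took from 0.151% to 0.478% of them. XIST, the targeted gene, had 4213 to 11209 counts in sgCtl in normoxia, 1 to 5 in sgXIST7 and 650 to 1009 in sgXIST9. Of 10 genes listed as a check of the hypoxia treatment, 9 rose in each clone. Of the ovarian and epithelial markers listed, EPCAM (at least 1787 counts) and KRT18 (at least 1461) were high in each library. KRT8 varied between libraries (56 to 779) and PAX8 was low (18 to 131). WT1 had 0 to 14 counts, and MUC16, KRT7, CDH1 and SOX17 did not exceed 4 in any library. The 6 fibroblast markers summed to 1.16 to 3.72 CPM in sgCtl, 69.9 to 309 in sgXIST7 and 33.5 to 73.8 in sgXIST9. COL1A2 set the sum in the KD clones but not in sgCtl, where its mean was 0.27 CPM in normoxia and 0.21 in hypoxia. LUM, PDGFRB and FAP stayed at or under 8 counts. COL1A2 had 1 to 6 counts in sgCtl and 694 to 3549 in the KD clones, and COL1A1 1 to 10 and 19 to 156, while DCN went the other way, with 3 to 30 in sgCtl and 0 to 4 in the KD clones. Markers of endothelium and leukocytes reached at most 14 counts, and PTPRC, which marks leukocytes in general, at most 1. The hypoxia libraries numbered 3 stood apart from the others of their groups: replicate 3 was the highest of the 3 in each clone for 18.7% of the genes tested and the lowest in each clone for 19.3%. Counts of changed genes in comparisons with hypoxia libraries are therefore also given without these 3.

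Most of the autophagy genes rose in hypoxia, in each of the 3 clones. At an adjusted p under 0.05 (edgeR's quasi-likelihood test, adjusted over all genes tested), 23 of the 36 were higher and 3 lower in sgCtl, where 26.1% of all genes tested were higher and 25.2% lower (51.4% in all). In sgXIST7 25 were higher and 3 lower, against 29.5% and 29.5% of all genes (59% in all), and in sgXIST9 24 were higher and 3 lower, against 30.5% and 24.8% (55.3% in all). Over the 36 genes the median change was 0.53 in sgCtl, 0.67 in sgXIST7 and 0.54 in sgXIST9 on the log2 scale, where the median over all genes tested was 0.02, 0.01 and 0.09. These 3 comparisons share no library. In all 3, 22 genes (61.1%) were higher, against 17.5% of all genes tested, and ULK2, UVRAG and ATG3 were lower (8.33%, against 16.7%). The genes were chosen with earlier results of these data known, which limits what such shares can show. A stricter call, an adjusted p under 0.01 with an absolute log2 fold change above 1, was made higher for 9 and lower for 1 of the 36 genes in sgCtl (11.3% and 8.49% of all genes tested), for 14 and 2 in sgXIST7 (15.1% and 12.2%) and for 9 and 0 in sgXIST9 (14.7% and 8.58%). By it BNIP3, BNIP3L, PINK1, PIK3C3, MAP1LC3B, GABARAPL1 and OPTN were called higher in each clone (19.4% of the 36 genes, against 6.99% of all genes tested). Changes are relative to the scaled total counts of a library, and in bulk RNA fewer cells of a kind and less RNA per cell cannot be told apart. Without the hypoxia libraries numbered 3 the counts were 24 higher and 4 lower in sgCtl, 25 and 3 in sgXIST7, and 25 and 3 in sgXIST9, against 29.9% and 28.5%, 32.1% and 30.5%, and 33.5% and 26.8% of all genes tested. Then 22 (61.1%) were higher and 3 (8.33%) lower in all 3 clones, against 18.5% and 17.2% of all genes tested. The stricter call was then made for 9 higher and 1 lower in sgCtl, against 13.3% and 10.1% of all genes tested. In sgXIST7 it was made for 12 and 2 (15.5% and 11.6% of all genes) and in sgXIST9 for 8 and 0 (16.1% and 8.49%). By it 7 (19.4%) were higher in each clone, against 7.19% of all genes tested.

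**Figure D1:**
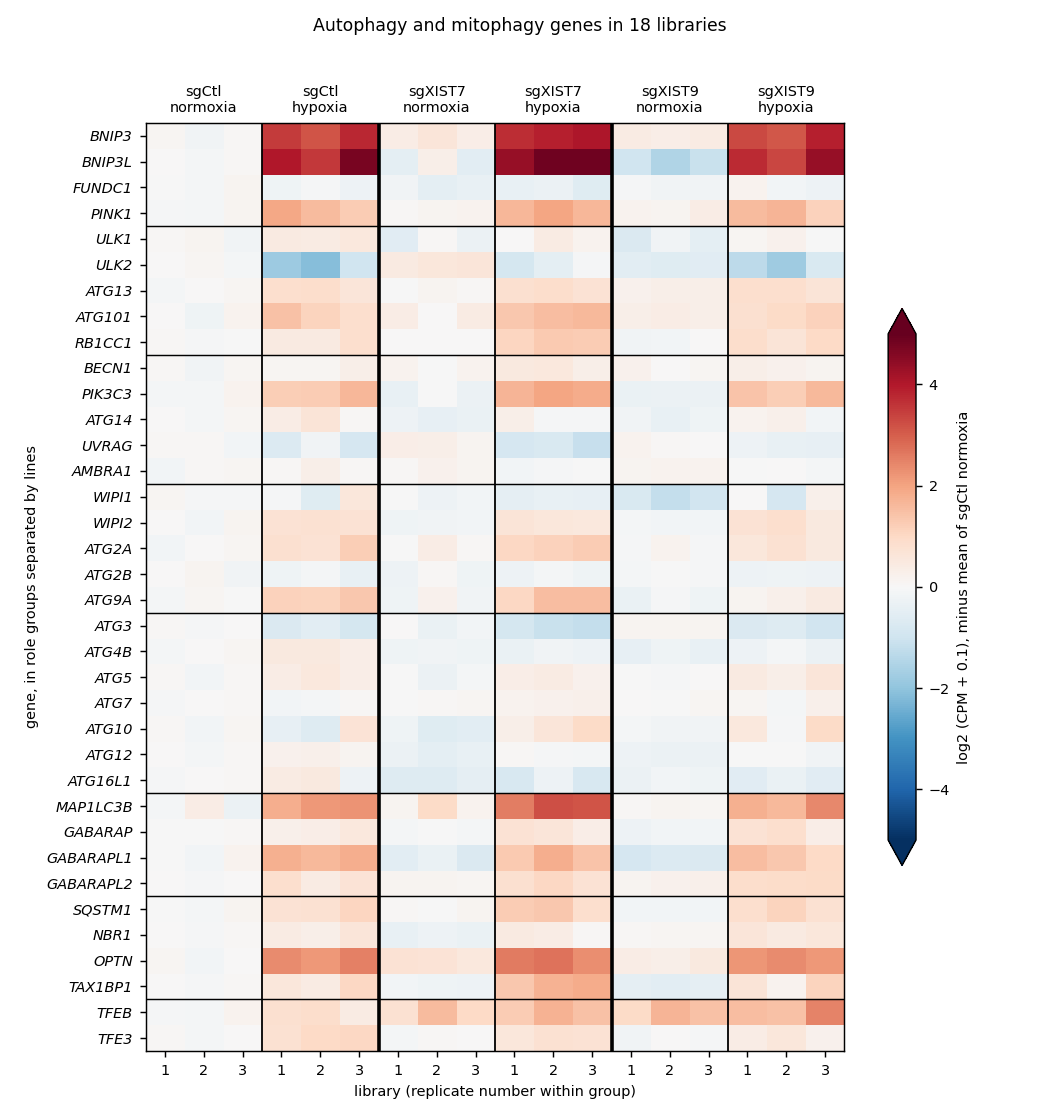
Heat map of the 36 genes tested (rows, in groups by role) in the 18 libraries (columns), coloured by log2 of CPM plus 0.1 minus the mean of the 3 sgCtl normoxia libraries. The hypoxia columns of each clone are red for BNIP3, BNIP3L, PINK1, PIK3C3, MAP1LC3B, GABARAPL1 and OPTN and blue for ATG3, while TFEB is red in the KD clones in normoxia as well.

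**Figure D2:**
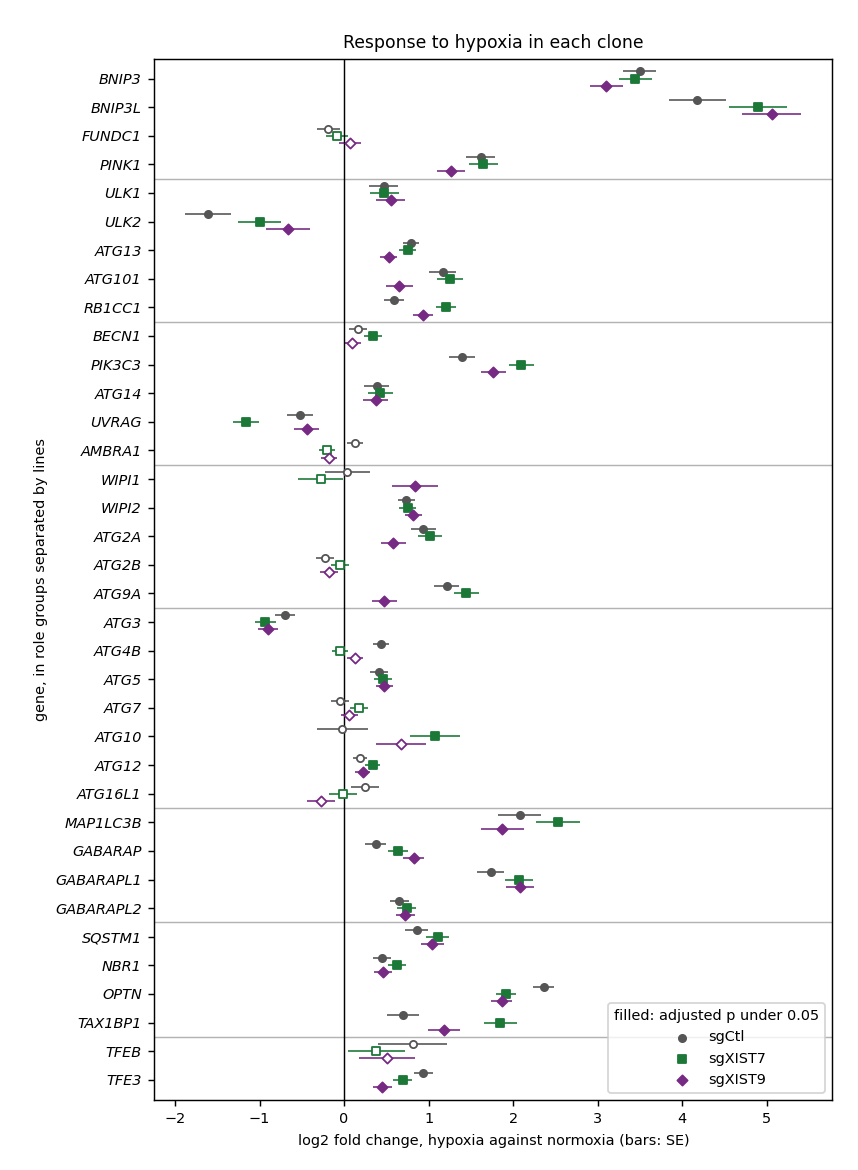
Log2 fold change of hypoxia against normoxia (x axis) for each of the 36 genes (y axis) in sgCtl, sgXIST7 and sgXIST9, with bars of 1 SE; filled symbols have an adjusted p under 0.05. BNIP3L lies farthest to the right in each clone, between 4.18 and 5.06, and ULK2, UVRAG and ATG3 lie left of 0 in each.

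Since several of the genes that rose are known HIF targets, the promoters of the genes (250 bases before to 50 after the RefSeq start) were searched on both strands for ACGTG and GCGTG, the core of the site that HIF binds. Promoters were found for 32 of the 37 genes, not for BNIP3L, PINK1, RB1CC1, UVRAG and MAP1LC3A. A core was held by 19 of the 32, and by 48.4% of the 27305 promoters in the table. Among the genes higher in all 3 clones 13 of 19 promoters held one, and among the 5 promoters of genes called higher in each clone 3 did. Both promoters found of genes lower in all 3 clones, ULK2 and ATG3, held one (2 of 2), as did 4 of 11 among the other genes. The sequences below, from GRCh38.p14 and each written 5′ to 3′ along the strand of its gene, show a promoter with many cores (BNIP3, chr10:131981874-131982173, minus strand), another whose gene rose (MAP1LC3B, chr16:87392086-87392385, plus strand), promoters of strongly raised genes with none (GABARAPL1, chr12:10212627-10212926, plus strand, and OPTN, chr10:13099832-13100131, plus strand), and the promoter of a gene that fell (ATG3, chr3:112561913-112562212, minus strand). Capitals mark ACGTG or GCGTG on either strand, which on the strand shown also reads as CACGT or CACGC.
BNIP3: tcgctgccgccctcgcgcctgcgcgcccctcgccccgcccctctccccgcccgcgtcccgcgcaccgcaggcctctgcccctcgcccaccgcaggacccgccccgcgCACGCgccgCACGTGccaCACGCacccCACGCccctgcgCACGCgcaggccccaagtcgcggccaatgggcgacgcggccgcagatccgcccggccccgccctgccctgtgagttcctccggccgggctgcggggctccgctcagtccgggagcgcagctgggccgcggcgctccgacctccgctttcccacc
MAP1LC3B: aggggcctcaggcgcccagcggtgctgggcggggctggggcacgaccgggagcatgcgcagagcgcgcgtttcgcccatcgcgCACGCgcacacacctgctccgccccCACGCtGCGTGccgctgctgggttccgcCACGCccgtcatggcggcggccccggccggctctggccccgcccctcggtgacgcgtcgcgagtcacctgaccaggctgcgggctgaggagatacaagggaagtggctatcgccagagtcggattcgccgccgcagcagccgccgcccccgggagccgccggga
GABARAPL1: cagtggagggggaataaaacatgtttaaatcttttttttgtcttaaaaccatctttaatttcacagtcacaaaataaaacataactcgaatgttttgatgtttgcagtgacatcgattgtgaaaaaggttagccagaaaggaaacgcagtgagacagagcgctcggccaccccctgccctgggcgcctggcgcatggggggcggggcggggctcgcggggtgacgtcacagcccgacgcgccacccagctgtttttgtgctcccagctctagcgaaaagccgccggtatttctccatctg
OPTN: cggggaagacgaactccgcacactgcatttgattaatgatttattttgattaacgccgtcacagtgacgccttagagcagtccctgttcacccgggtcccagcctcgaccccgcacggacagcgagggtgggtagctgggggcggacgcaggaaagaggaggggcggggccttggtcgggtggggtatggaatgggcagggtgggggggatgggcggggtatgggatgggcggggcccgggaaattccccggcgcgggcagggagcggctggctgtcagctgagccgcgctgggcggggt
ATG3: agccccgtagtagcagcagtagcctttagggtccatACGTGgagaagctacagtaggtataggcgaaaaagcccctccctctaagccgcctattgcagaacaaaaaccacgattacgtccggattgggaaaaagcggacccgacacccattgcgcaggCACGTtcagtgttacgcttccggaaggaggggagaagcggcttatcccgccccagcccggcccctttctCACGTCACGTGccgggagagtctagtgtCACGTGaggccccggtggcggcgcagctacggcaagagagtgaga
BNIP3 held 6 cores, the first 143 and the last 104 bases before the start, where the palindrome CACGTG counts on each strand. MAP1LC3B held 4, from 167 to 114 bases before the start, and GABARAPL1 and OPTN held 0. ATG3, whose RNA fell, held 7, of which the palindromes count on both strands. CACGTG, the E-box that TFEB and TFE3 can bind and which overlaps the HIF core, was in 3 of the 32 promoters (7.43% of all promoters), and the longer TCACGTG was in 2 (3.82%). A match describes these letters only.

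Of the 4 receptors of mitophagy, BNIP3, BNIP3L and PINK1 rose in each clone, where 17.5% of all genes tested did. FUNDC1 did not pass the test in any. BNIP3, which tethers mitochondria to the ATG8 proteins, is given first, with the libraries always in the order of their replicate numbers and in CPM, a gene's counts scaled to the total of its library. In normoxia BNIP3 was at 67.2, 55.5 and 64.2 CPM in sgCtl, 80.3, 94.1 and 78.6 in sgXIST7 and 81.6, 78.1 and 81.5 in sgXIST9. BNIP3 stood at 709, 556 and 845 CPM in sgCtl, 803, 913 and 1038 in sgXIST7 and 611, 529 and 928 in sgXIST9 in hypoxia. No hypoxia library of any clone came near those in normoxia, and in each clone replicate 3 was the highest. For BNIP3 the log2 fold change was 3.50 (SE 0.20, adjusted p = 1.1e-09) in sgCtl, 3.44 (SE 0.20, adjusted p = 6.8e-10) in sgXIST7 and 3.10 (SE 0.19, adjusted p = 2.6e-09) in sgXIST9, which is 11.3-fold in sgCtl. In the reference transcripts 14.2% of the stretches of 50 bases of BNIP3 are shared with other genes, mainly the pseudogene BNIP3P1, so that some of its reads could have been counted elsewhere.

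BNIP3L, also called NIX, has the same task and clears mitochondria from maturing red cells. In normoxia BNIP3L was at 53.7, 50.04 and 56.1 CPM in sgCtl, 38.4, 65.6 and 36.6 in sgXIST7 and 26.9, 18.8 and 24.3 in sgXIST9. BNIP3L rose to 861, 611 and 1426 CPM in sgCtl, 1095, 1541 and 1548 in sgXIST7 and 713, 539 and 1091 in sgXIST9 in hypoxia. The groups of each clone lay far apart, sgXIST9 had the lowest libraries in normoxia, and replicate 3 was the highest of the hypoxia libraries in each clone. Its log2 fold change was the largest of the 36 genes in each clone, 4.18 (SE 0.33, adjusted p = 4.7e-08) in sgCtl, 4.90 (SE 0.34, adjusted p = 5.4e-09) in sgXIST7 and 5.06 (SE 0.35, adjusted p = 5.9e-09) in sgXIST9. Per kilobase of exon, BNIP3 and BNIP3L were the most abundant of the 37 genes in each clone in hypoxia, at or above the 98.7 percentile of all genes tested, with mean levels of 431 ± 88.4 and 272 ± 117 CPM per kb (SD, n = 3) in sgCtl.

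PINK1 is a kinase that builds up on damaged mitochondria and phosphorylates ubiquitin there. In normoxia PINK1 was at 16.9, 16.5 and 19.5 CPM in sgCtl, 18.2, 19.5 and 20.1 in sgXIST7 and 19.996, 19.4 and 22.5 in sgXIST9. PINK1 stood at 66.9, 53.1 and 42.2 CPM in sgCtl, 56.04, 70.004 and 55.2 in sgXIST7 and 52.3, 57.3 and 39.4 in sgXIST9 in hypoxia. The hypoxia libraries were all above those in normoxia, and replicate 3 was the lowest of them in each clone. For PINK1 the log2 fold change was 1.62 (SE 0.17, adjusted p = 8.4e-07) in sgCtl, 1.65 (SE 0.17, adjusted p = 3e-07) in sgXIST7 and 1.27 (SE 0.17, adjusted p = 6.7e-06) in sgXIST9. The exons of PINK1 share 58.1% of their bases with PINK1-AS on the opposite strand, and the strand setting of the authors' counting is not given in the sources used here. PINK1-AS itself had log2 fold changes of 0.56 (SE 0.17, adjusted p = 0.011) in sgCtl, 0.39 (SE 0.17, adjusted p = 0.052) in sgXIST7 and 0.77 (SE 0.17, adjusted p = 0.00087) in sgXIST9. FUNDC1, a receptor that binds ATG8 proteins when it is dephosphorylated, had log2 fold changes of -0.19, -0.08 and 0.07 in hypoxia in sgCtl, sgXIST7 and sgXIST9, none of which passed the test (adjusted p = 0.25, 0.62 and 0.7).

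**Figure D3:**
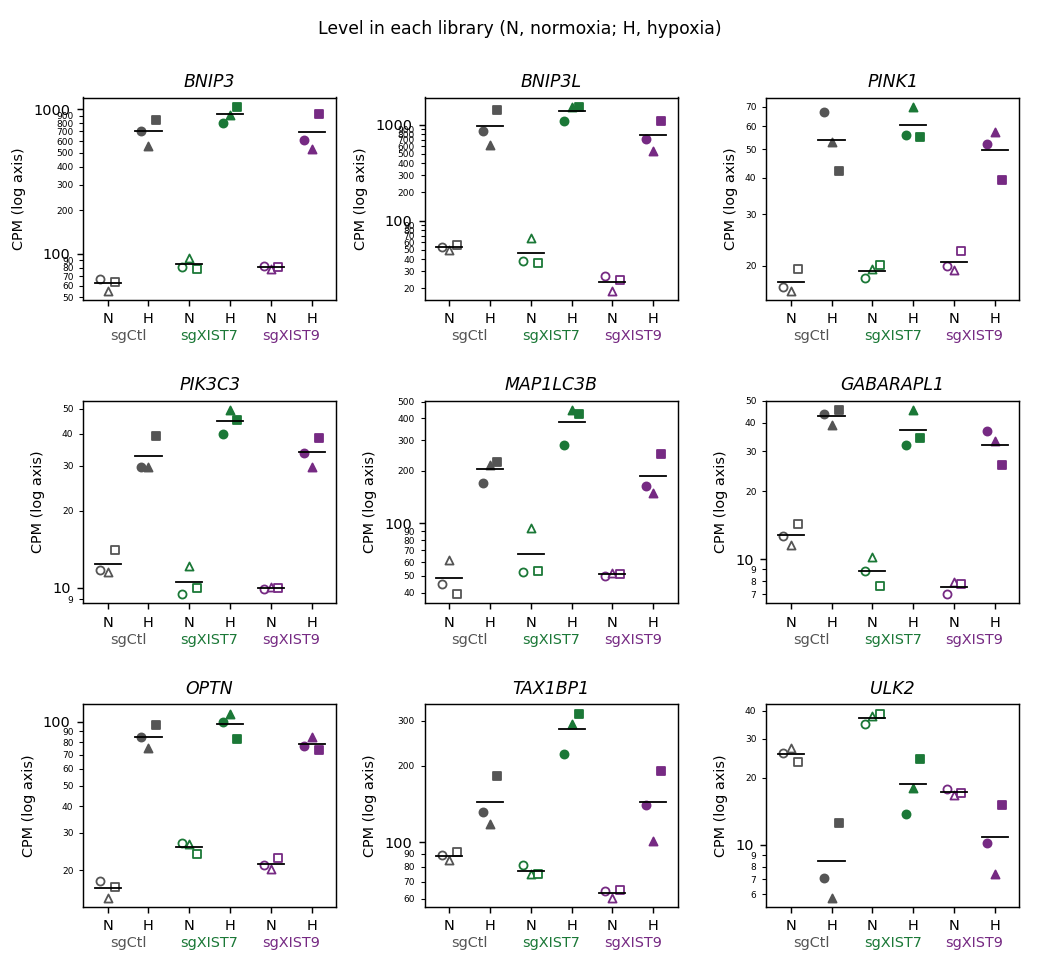
CPM (log axes) of 9 genes in the 18 libraries, grouped by clone with normoxia (N, open symbols) and hypoxia (H, filled); circles, triangles and squares are replicates 1, 2 and 3 and the lines are group means. For BNIP3 and BNIP3L the squares are the highest hypoxia libraries in each clone, and TAX1BP1 in hypoxia is highest in sgXIST7 with libraries from 223 to 320 CPM.

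In the ULK1 complex, 4 of 5 genes rose in each clone and the kinase ULK2 fell. Of all genes tested, 17.5% rose and 16.7% fell in all 3 clones. In normoxia ULK2 was at 25.8, 27.2 and 23.6 CPM in sgCtl, 35.1, 37.9 and 38.9 in sgXIST7 and 17.8, 16.8 and 17.1 in sgXIST9. ULK2 stood at 7.13, 5.81 and 12.6 CPM in sgCtl, 13.8, 17.99 and 24.4 in sgXIST7 and 10.2, 7.44 and 15.1 in sgXIST9 in hypoxia. The groups did not overlap in any clone, replicate 3 was the highest hypoxia library in each, and sgXIST7 had the highest libraries in normoxia. For ULK2 the log2 fold change was -1.61 (SE 0.27, adjusted p = 1e-04) in sgCtl, -1.001 (SE 0.25, adjusted p = 0.0028) in sgXIST7 and -0.67 (SE 0.26, adjusted p = 0.038) in sgXIST9, and that of sgXIST9 missed the threshold under 6 alternative settings (adjusted p up to 0.17). ULK1, the kinase that AMPK and MTOR regulate, was at 15.5, 16.3 and 13.1 CPM in sgCtl, 10.1, 15.4 and 12.1 in sgXIST7 and 8.93, 13.3 and 10.7 in sgXIST9 in normoxia. ULK1 stood at 20.4, 19.9 and 21.8 CPM in sgCtl, 15.2, 19.7 and 17.1 in sgXIST7 and 15.8, 17.5 and 14.8 in sgXIST9 in hypoxia. The hypoxia libraries lay above those in normoxia in sgCtl and sgXIST9, and in sgXIST7 the ranges overlapped. For ULK1 the log2 fold change was 0.47 (SE 0.17, adjusted p = 0.031) in sgCtl, 0.47 (SE 0.17, adjusted p = 0.024) in sgXIST7 and 0.55 (SE 0.17, adjusted p = 0.012) in sgXIST9. In sgCtl it no longer passed under 6 alternative settings, one of them without the hypoxia libraries numbered 3 (adjusted p up to 0.13), in sgXIST7 under 4 (up to 0.13), and in sgXIST9 without normoxia replicate 1 (0.073).

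ATG13, ATG101 and RB1CC1 rose in each clone as well. ATG13 carries ULK1 to its partners and was at 34.4, 37.7 and 39.4 CPM in sgCtl, 36.9, 40.6 and 38.2 in sgXIST7 and 43.1, 44.99 and 45.02 in sgXIST9 in normoxia. ATG13 stood at 67.2, 68.7 and 56.97 CPM in sgCtl, 64.5, 68.8 and 61.2 in sgXIST7 and 67.001, 65.6 and 58.8 in sgXIST9 in hypoxia. Its hypoxia libraries were all above those in normoxia, with replicate 3 the lowest in each clone, and the log2 fold change was 0.79 (SE 0.10, adjusted p = 6e-06) in sgCtl, 0.75 (SE 0.10, adjusted p = 5.5e-06) in sgXIST7 and 0.53 (SE 0.10, adjusted p = 0.00025) in sgXIST9. ATG101, which stabilizes ATG13, was at 24.4, 20.3 and 27.2 CPM in sgCtl, 30.6, 24.2 and 31.4 in sgXIST7 and 29.1, 30.8 and 29.1 in sgXIST9 in normoxia. ATG101 stood at 66.5, 52.1 and 43.1 CPM in sgCtl, 61.5, 69.4 and 74.3 in sgXIST7 and 41.7, 45.8 and 52.5 in sgXIST9 in hypoxia. Groups did not overlap in any clone, and the log2 fold change was 1.17 (SE 0.16, adjusted p = 1.3e-05) in sgCtl, 1.25 (SE 0.16, adjusted p = 3.2e-06) in sgXIST7 and 0.65 (SE 0.16, adjusted p = 0.0018) in sgXIST9. RB1CC1, the scaffold also called FIP200, was at 76.2, 71.2 and 73.3 CPM in sgCtl, 74.9, 73.9 and 73.8 in sgXIST7 and 65.1, 66.5 and 75.3 in sgXIST9 in normoxia. RB1CC1 stood at 100.2, 101 and 131 CPM in sgCtl, 155, 183 and 177 in sgXIST7 and 134, 115 and 145 in sgXIST9 in hypoxia. No group overlapped that of the other condition, the highest hypoxia libraries were those of sgXIST7, and the log2 fold change was 0.59 (SE 0.12, adjusted p = 5e-04) in sgCtl, 1.21 (SE 0.12, adjusted p = 2e-07) in sgXIST7 and 0.93 (SE 0.12, adjusted p = 4.5e-06) in sgXIST9.

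In the class III PI3-kinase complex, the catalytic subunit PIK3C3 (VPS34) rose strongly and UVRAG, the subunit of the complex on endosomes, fell. In normoxia PIK3C3 was at 11.7, 11.5 and 14.01 CPM in sgCtl, 9.43, 12.2 and 9.93 in sgXIST7 and 9.86, 10.04 and 9.99 in sgXIST9. PIK3C3 stood at 29.5, 29.7 and 39.2 CPM in sgCtl, 39.9, 49.4 and 45.3 in sgXIST7 and 33.7, 29.5 and 38.5 in sgXIST9 in hypoxia. The groups lay apart in each clone and sgXIST7 held the highest hypoxia libraries. For PIK3C3 the log2 fold change was 1.40 (SE 0.15, adjusted p = 1.1e-06) in sgCtl, 2.10 (SE 0.15, adjusted p = 6.7e-09) in sgXIST7 and 1.77 (SE 0.15, adjusted p = 6e-08) in sgXIST9. UVRAG was at 25.6, 25.4 and 22.04 CPM in sgCtl, 30.4, 29.5 and 27.01 in sgXIST7 and 27.9, 25.3 and 24.9 in sgXIST9 in normoxia. UVRAG stood at 15.3, 21.8 and 13.6 CPM in sgCtl, 13.5, 14.3 and 10.8 in sgXIST7 and 20.2, 19.02 and 18.1 in sgXIST9 in hypoxia. Every hypoxia library was below those in normoxia of its clone, and replicate 3 was the lowest in each. For UVRAG the log2 fold change was -0.52 (SE 0.15, adjusted p = 0.0098) in sgCtl, -1.16 (SE 0.16, adjusted p = 6.4e-06) in sgXIST7 and -0.44 (SE 0.15, adjusted p = 0.02) in sgXIST9, which missed the threshold under 2 alternative settings in sgCtl and 3 in sgXIST9 (adjusted p up to 0.073 in each).

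ATG14, the subunit that takes the complex to the phagophore, was at 37.7, 34.7 and 40.8 CPM in sgCtl, 31.2, 28.2 and 29.5 in sgXIST7 and 33.4, 28.8 and 32.4 in sgXIST9 in normoxia. ATG14 stood at 49.2, 59.7 and 38.99 CPM in sgCtl, 46.4, 36.5 and 36.5 in sgXIST7 and 42.3, 45.5 and 34.6 in sgXIST9 in hypoxia. The increase was small, the groups of sgCtl overlapped through replicate 3, and the log2 fold change was 0.39 (SE 0.15, adjusted p = 0.038) in sgCtl, 0.43 (SE 0.15, adjusted p = 0.021) in sgXIST7 and 0.37 (SE 0.15, adjusted p = 0.043) in sgXIST9, which missed the threshold under 6, 3 and 8 alternative settings in sgCtl, sgXIST7 and sgXIST9. BECN1, which holds the complex together, passed in sgXIST7 (0.34, SE 0.11, adjusted p = 0.011; 0.054 without normoxia replicate 2) and had log2 fold changes of 0.16 in sgCtl and 0.10 in sgXIST9. Its exons share 36.8% of their bases with CNTD1 on the opposite strand, which had at most 13 counts in any library. AMBRA1, a regulator that binds BECN1, did not pass in any clone, with log2 fold changes from -0.21 to 0.13.

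Of the 5 genes of the lipid supply, WIPI2, ATG2A and ATG9A rose in each clone, where 17.5% of all genes tested did. WIPI2 reads the lipid that PIK3C3 makes and recruits ATG16L1. In normoxia WIPI2 was at 49.7, 44.9 and 53.96 CPM in sgCtl, 42.8, 43.8 and 45.1 in sgXIST7 and 45.7, 44.8 and 44.7 in sgXIST9. WIPI2 stood at 81.9, 84.7 and 81.1 CPM in sgCtl, 77.6, 73.5 and 70.6 in sgXIST7 and 80.7, 88.4 and 68.98 in sgXIST9 in hypoxia. Libraries of the conditions did not overlap and replicate 3 was the lowest in each clone. For WIPI2 the log2 fold change was 0.74 (SE 0.10, adjusted p = 1.2e-05) in sgCtl, 0.75 (SE 0.10, adjusted p = 5.6e-06) in sgXIST7 and 0.82 (SE 0.10, adjusted p = 3e-06) in sgXIST9. ATG2A, a lipid transfer protein, was at 21.6, 24.2 and 25.4 CPM in sgCtl, 23.05, 30.7 and 24.4 in sgXIST7 and 22.7, 26.9 and 23.01 in sgXIST9 in normoxia. ATG2A stood at 41.2, 39.6 and 55.9 CPM in sgCtl, 48.2, 52.7 and 57.1 in sgXIST7 and 35.2, 40.1 and 33.6 in sgXIST9 in hypoxia. Every hypoxia library was above those in normoxia, and the log2 fold change was 0.94 (SE 0.15, adjusted p = 5.8e-05) in sgCtl, 1.02 (SE 0.15, adjusted p = 1.4e-05) in sgXIST7 and 0.58 (SE 0.15, adjusted p = 0.0027) in sgXIST9.

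ATG9A is the membrane protein whose vesicles seed the phagophore. In normoxia ATG9A was at 53.1, 61.3 and 56.9 CPM in sgCtl, 48.8, 65.7 and 50.02 in sgXIST7 and 44.9, 55.1 and 48.7 in sgXIST9. ATG9A stood at 127, 125 and 145 CPM in sgCtl, 116, 167 and 165 in sgXIST7 and 63.04, 67.1 and 77.1 in sgXIST9 in hypoxia. The hypoxia libraries of sgXIST9 were above those in normoxia but below each of the hypoxia libraries of the other clones. For ATG9A the log2 fold change was 1.21 (SE 0.15, adjusted p = 4.9e-06) in sgCtl, 1.45 (SE 0.15, adjusted p = 4e-07) in sgXIST7 and 0.48 (SE 0.15, adjusted p = 0.012) in sgXIST9, and that of sgXIST9 missed the threshold without its normoxia replicate 1 (adjusted p = 0.057). Of its stretches of 50 bases, 36.8% are shared with another gene model, ENSG00000284820. WIPI1, a relative of WIPI2, passed in sgXIST9 (0.84, SE 0.27, adjusted p = 0.015), where the groups overlapped and the call was lost without normoxia replicate 2 or hypoxia replicate 3 (adjusted p up to 0.08), and had log2 fold changes of 0.04 in sgCtl and -0.28 in sgXIST7. ATG2B did not pass in any clone, with log2 fold changes from -0.22 to -0.05.

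Over the 7 conjugation genes the median log2 fold change was 0.19 in sgCtl, 0.17 in sgXIST7 and 0.13 in sgXIST9. ATG3, the enzyme that passes ATG8 proteins to lipid, fell. In normoxia ATG3 was at 65.01, 60.3 and 64.2 CPM in sgCtl, 63.6, 50.5 and 57.9 in sgXIST7 and 68.8, 70.01 and 68.8 in sgXIST9. ATG3 stood at 38.1, 44.3 and 34.4 CPM in sgCtl, 33.9, 28.8 and 27.4 in sgXIST7 and 38.1, 40.4 and 32.8 in sgXIST9 in hypoxia. The hypoxia libraries were all below those in normoxia, replicate 3 was the lowest in each clone, and the log2 fold change was -0.70 (SE 0.12, adjusted p = 0.00015) in sgCtl, -0.93 (SE 0.12, adjusted p = 5e-06) in sgXIST7 and -0.90 (SE 0.12, adjusted p = 8.7e-06) in sgXIST9. ATG5, whose conjugate with ATG12 drives that step, was at 47.2, 41.3 and 47.5 CPM in sgCtl, 44.7, 37.04 and 41.8 in sgXIST7 and 44.7, 43.1 and 45.9 in sgXIST9 in normoxia. ATG5 stood at 58.8, 65.2 and 57.2 CPM in sgCtl, 57.04, 60.4 and 52.8 in sgXIST7 and 61.7, 56.1 and 68.2 in sgXIST9 in hypoxia. The groups did not overlap, and the log2 fold change was 0.41 (SE 0.11, adjusted p = 0.0036) in sgCtl, 0.46 (SE 0.11, adjusted p = 0.0011) in sgXIST7 and 0.48 (SE 0.11, adjusted p = 0.001) in sgXIST9.

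ATG4B, the protease that trims ATG8 proteins, was at 59.7, 63.8 and 68.1 CPM in sgCtl, 54.7, 56.04 and 54.5 in sgXIST7 and 47.6, 54.5 and 48.8 in sgXIST9 in normoxia. ATG4B stood at 89.8, 88.7 and 80.99 CPM in sgCtl, 50.1, 55.9 and 53.9 in sgXIST7 and 53.2, 60.2 and 51.9 in sgXIST9 in hypoxia. It rose in sgCtl, where the groups did not overlap, and its libraries overlapped in both KD clones. For ATG4B the log2 fold change was 0.44 (SE 0.09, adjusted p = 0.00097) in sgCtl, -0.05 (SE 0.09, adjusted p = 0.68) in sgXIST7 and 0.13 (SE 0.09, adjusted p = 0.24) in sgXIST9. ATG10, which joins ATG12 to ATG5, was at 13.5, 11.8 and 13.8 CPM in sgCtl, 11.2, 8.39 and 9.02 in sgXIST7 and 12.1, 11.6 and 11.3 in sgXIST9 in normoxia. ATG10 stood at 9.63, 8.34 and 21.1 CPM in sgCtl, 15.9, 19.6 and 25.4 in sgXIST7 and 18.5, 12.4 and 25.1 in sgXIST9 in hypoxia. Replicate 3 was far above the other hypoxia libraries in sgCtl, and the log2 fold change was -0.02 (SE 0.30, adjusted p = 0.96) in sgCtl, 1.08 (SE 0.30, adjusted p = 0.0047) in sgXIST7 and 0.67 (SE 0.29, adjusted p = 0.061) in sgXIST9. ATG12 rose in sgXIST7 (0.34, adjusted p = 0.003) and sgXIST9 (0.22, adjusted p = 0.042, lost under 8 alternative settings) and had a log2 fold change of 0.19 in sgCtl. ATG7, the activating enzyme, and ATG16L1, which places the conjugate on the membrane, did not pass in any clone, with log2 fold changes from -0.27 to 0.25.

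All 4 ATG8 genes tested rose in each clone, as did 17.5% of all genes tested. MAP1LC3A, not tested, had 4 to 11 counts in sgCtl in normoxia and 1 to 3 in hypoxia. It had 1 to 7 and 1 to 9 in sgXIST7, and 0 to 4 and 4 to 10 in sgXIST9. MAP1LC3B encodes LC3B, the protein most used to follow autophagosomes. In normoxia MAP1LC3B was at 44.9, 61.3 and 39.3 CPM in sgCtl, 52.9, 93.7 and 53.2 in sgXIST7 and 49.99, 51.95 and 50.98 in sgXIST9. MAP1LC3B stood at 169.8, 217 and 225 CPM in sgCtl, 282, 446 and 425 in sgXIST7 and 163, 149 and 249 in sgXIST9 in hypoxia. The groups lay apart, with each hypoxia library of sgXIST7 above those of the other clones. For MAP1LC3B the log2 fold change was 2.08 (SE 0.25, adjusted p = 4.4e-06) in sgCtl, 2.53 (SE 0.26, adjusted p = 3e-07) in sgXIST7 and 1.87 (SE 0.25, adjusted p = 8.6e-06) in sgXIST9. Of its stretches of 50 bases, 11.2% are shared, mainly with MAP1LC3B2, a nearly identical gene of at most 396 counts, which rose by 2.47 (SE 0.30, adjusted p = 4e-06) in sgCtl, 2.54 (SE 0.28, adjusted p = 9.1e-07) in sgXIST7 and 2.14 (SE 0.29, adjusted p = 9.8e-06) in sgXIST9. Reads of these genes may have been split between them.

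GABARAPL1 belongs to the branch of ATG8 proteins named after GABARAP. In normoxia GABARAPL1 was at 12.7, 11.5 and 14.3 CPM in sgCtl, 8.86, 10.2 and 7.62 in sgXIST7 and 7.01, 7.92 and 7.77 in sgXIST9. GABARAPL1 stood at 43.6, 39.1 and 45.5 CPM in sgCtl, 32.1, 45.5 and 34.2 in sgXIST7 and 36.96, 33.1 and 25.9 in sgXIST9 in hypoxia. The hypoxia libraries of each clone were at least 25.9 CPM and those in normoxia at most 14.3. For GABARAPL1 the log2 fold change was 1.73 (SE 0.16, adjusted p = 3.1e-07) in sgCtl, 2.07 (SE 0.17, adjusted p = 2.2e-08) in sgXIST7 and 2.08 (SE 0.17, adjusted p = 3.1e-08) in sgXIST9. GABARAP itself was at 68.4, 68.5 and 72.7 CPM in sgCtl, 65.5, 69.3 and 65.5 in sgXIST7 and 58.2, 63.1 and 64.1 in sgXIST9 in normoxia. GABARAP stood at 84.3, 87.8 and 99.6 CPM in sgCtl, 116, 107 and 87.7 in sgXIST7 and 114, 124 and 89.1 in sgXIST9 in hypoxia. Groups did not overlap in any clone, and the log2 fold change was 0.37 (SE 0.12, adjusted p = 0.018) in sgCtl, 0.64 (SE 0.12, adjusted p = 0.00028) in sgXIST7 and 0.82 (SE 0.12, adjusted p = 3e-05) in sgXIST9, which in sgCtl was lost without normoxia replicates 1 or 2 or hypoxia replicate 3 (adjusted p up to 0.062). It shares 33.4% of its stretches of 50 bases with a further gene model, ENSG00000262526. GABARAPL2 was at 36.03, 34.03 and 35.6 CPM in sgCtl, 38.6, 38.9 and 37.3 in sgXIST7 and 38.3, 40.8 and 42.3 in sgXIST9 in normoxia. GABARAPL2 stood at 63.3, 46.5 and 56.8 CPM in sgCtl, 61.5, 71.95 and 58.01 in sgXIST7 and 65.5, 65.9 and 68.98 in sgXIST9 in hypoxia. No group overlapped that of the other condition, and the log2 fold change was 0.65 (SE 0.11, adjusted p = 0.00013) in sgCtl, 0.74 (SE 0.11, adjusted p = 2.3e-05) in sgXIST7 and 0.72 (SE 0.11, adjusted p = 3.6e-05) in sgXIST9.

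The 4 cargo receptors also rose in each clone, where 17.5% of all genes tested did. OPTN, which binds ubiquitin on mitochondria and bacteria, rose most. In normoxia OPTN was at 17.8, 14.9 and 16.8 CPM in sgCtl, 26.98, 26.5 and 23.9 in sgXIST7 and 21.3, 20.3 and 23.01 in sgXIST9. OPTN stood at 84.5, 74.8 and 95.9 CPM in sgCtl, 99.6, 109 and 83.2 in sgXIST7 and 76.9, 84.9 and 73.8 in sgXIST9 in hypoxia. The groups lay far apart, and sgCtl had the lowest libraries in normoxia. For OPTN the log2 fold change was 2.36 (SE 0.13, adjusted p = 9.4e-10) in sgCtl, 1.92 (SE 0.12, adjusted p = 2.2e-09) in sgXIST7 and 1.87 (SE 0.12, adjusted p = 4.1e-09) in sgXIST9. TAX1BP1, a receptor for protein aggregates, was at 89.1, 84.9 and 91.9 CPM in sgCtl, 81.5, 75.4 and 75.2 in sgXIST7 and 64.4, 60.7 and 65.2 in sgXIST9 in normoxia. TAX1BP1 stood at 132, 118 and 182 CPM in sgCtl, 223, 293 and 320.3 in sgXIST7 and 139.9, 101 and 191 in sgXIST9 in hypoxia. Replicate 3 was the highest hypoxia library in each clone, and all 3 of sgXIST7 were above those of the other clones. For TAX1BP1 the log2 fold change was 0.70 (SE 0.19, adjusted p = 0.0062) in sgCtl, 1.85 (SE 0.20, adjusted p = 5.4e-07) in sgXIST7 and 1.18 (SE 0.19, adjusted p = 7.1e-05) in sgXIST9.

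SQSTM1, or p62, links ubiquitinated cargo to LC3 and is itself degraded by autophagy. In normoxia SQSTM1 was at 133, 126 and 150.2 CPM in sgCtl, 142, 135 and 148 in sgXIST7 and 122, 124 and 125 in sgXIST9. SQSTM1 stood at 226, 231 and 286 CPM in sgCtl, 330.1, 345 and 241 in sgXIST7 and 243, 292 and 229.7 in sgXIST9 in hypoxia. Libraries of the conditions did not overlap, and the log2 fold change was 0.86 (SE 0.14, adjusted p = 6.2e-05) in sgCtl, 1.11 (SE 0.14, adjusted p = 2.7e-06) in sgXIST7 and 1.04 (SE 0.14, adjusted p = 6.9e-06) in sgXIST9. Its exons share 18.7% of their bases with MRNIP on the opposite strand. NBR1, its partner, was at 79.9, 76.6 and 81.7 CPM in sgCtl, 61.3, 65.9 and 63.5 in sgXIST7 and 82.9, 84.5 and 84.9 in sgXIST9 in normoxia. NBR1 stood at 105.1, 97.2 and 122 CPM in sgCtl, 108, 104 and 83.1 in sgXIST7 and 121, 109 and 117 in sgXIST9 in hypoxia. The groups did not overlap, and the log2 fold change was 0.44 (SE 0.11, adjusted p = 0.0022) in sgCtl, 0.63 (SE 0.11, adjusted p = 7.5e-05) in sgXIST7 and 0.46 (SE 0.11, adjusted p = 0.0013) in sgXIST9.

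Of the transcription factors of lysosome and autophagy genes, TFE3 rose and TFEB had few reads. TFE3 was at 32.3, 29.3 and 31.6 CPM in sgCtl, 28.8, 32.5 and 31.5 in sgXIST7 and 27.8, 31.4 and 30.01 in sgXIST9 in normoxia. TFE3 stood at 52.6, 62.4 and 63.8 CPM in sgCtl, 46.01, 52.5 and 51.9 in sgXIST7 and 39.7, 46.02 and 36.4 in sgXIST9 in hypoxia. The hypoxia libraries were above those in normoxia in each clone, and the log2 fold change was 0.94 (SE 0.11, adjusted p = 3.7e-06) in sgCtl, 0.70 (SE 0.11, adjusted p = 4.8e-05) in sgXIST7 and 0.45 (SE 0.11, adjusted p = 0.0025) in sgXIST9. TFEB was at 0.470, 0.464 and 0.574 CPM in sgCtl, 0.908, 1.72 and 1.09 in sgXIST7 and 1.07, 1.86 and 1.58 in sgXIST9 in normoxia. TFEB stood at 0.938, 0.992 and 0.709 CPM in sgCtl, 1.34, 1.90 and 1.55 in sgXIST7 and 1.64, 1.54 and 3.28 in sgXIST9 in hypoxia. These levels rest on 6 to 52 counts per library. For TFEB the log2 fold change was 0.81 (SE 0.41, adjusted p = 0.11) in sgCtl, 0.38 (SE 0.34, adjusted p = 0.34) in sgXIST7 and 0.51 (SE 0.33, adjusted p = 0.2) in sgXIST9.

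XIST KD was compared with sgCtl next, in normoxia and in hypoxia. Both KD clones are set against the same sgCtl libraries, so their values stand side by side and no overlap between them is counted. In normoxia 6 of the 36 genes differed in sgXIST7 (2 higher, 4 lower) and 7 in sgXIST9 (2 higher, 5 lower), 16.7% and 19.4% of them. Of all genes tested 21.6% differed in sgXIST7 (11.1% higher, 10.5% lower) and 21.6% in sgXIST9 (10.5% higher, 11% lower). With upper-quartile scaling the split in sgXIST9 was 1 higher and 5 lower. In hypoxia 10 differed in sgXIST7 (6 higher, 4 lower) and 6 in sgXIST9 (1 higher, 5 lower), 27.8% and 16.7% of them. Of all genes 42.3% differed in sgXIST7 (20.7% higher, 21.6% lower) and 29.6% in sgXIST9 (15.5% higher, 14.1% lower). Without the hypoxia libraries numbered 3 the counts in hypoxia were 19 (13 higher, 6 lower) in sgXIST7 and 9 (4 higher, 5 lower) in sgXIST9, 52.8% and 25% of the genes, where 50.8% and 38.9% of all genes tested differed. Of the 3 fibroblast markers tested, COL1A2 and COL1A1 were higher and DCN was lower in both KD clones in each condition, and their part in these differences was not tested.

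In normoxia OPTN was higher in the KD clones, by 0.64 (SE 0.12, adjusted p = 0.0011) in sgXIST7 and 0.38 (SE 0.12, adjusted p = 0.037) in sgXIST9 on the log2 scale, with no overlap of libraries. TFEB was higher by 1.27 (SE 0.39, adjusted p = 0.026) in sgXIST7 and by 1.55 (SE 0.38, adjusted p = 0.0071) in sgXIST9, on 6 to 10 counts in the sgCtl libraries and 21 to 35 in those of the KD clones. GABARAPL1 was lower, with -0.53 (SE 0.17, adjusted p = 0.029) in sgXIST7 and -0.77 (SE 0.17, adjusted p = 0.003) in sgXIST9, as was ATG12, with -0.38 (SE 0.09, adjusted p = 0.0041) and -0.29 (SE 0.09, adjusted p = 0.024). BNIP3L was lower in sgXIST9 by 1.19 (SE 0.30, adjusted p = 0.0089), a call that was lost without sgXIST9 replicate 2 of normoxia (adjusted p = 0.051), and had -0.19 (SE 0.30, adjusted p = 0.72) in sgXIST7. ATG16L1 and NBR1 were lower in sgXIST7 (-0.58, SE 0.17, adjusted p = 0.018 and -0.32, SE 0.11, adjusted p = 0.038), and WIPI1 and ATG4B in sgXIST9 (-0.97, SE 0.27, adjusted p = 0.017 and -0.34, SE 0.09, adjusted p = 0.014). OPTN and ATG12 in sgXIST7 and TFEB and GABARAPL1 in sgXIST9 kept an adjusted p under 0.05 under each alternative setting run, and the other calls in normoxia lost it under 1 to 7 of them. BNIP3 did not pass in either clone (0.44, SE 0.18, adjusted p = 0.1 and 0.37, SE 0.18, adjusted p = 0.18), although each KD library was above those of sgCtl.

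In hypoxia ATG4B was lower in both KD clones, with -0.70 (SE 0.09, adjusted p = 2.2e-05) in sgXIST7 and -0.65 (SE 0.09, adjusted p = 5.6e-05) in sgXIST9, and each KD library was below those of sgCtl. ATG16L1 was lower too (-0.84, SE 0.17, adjusted p = 0.00079 and -0.74, SE 0.17, adjusted p = 0.0029), as was ATG12 (-0.23, SE 0.09, adjusted p = 0.045 and -0.26, SE 0.09, adjusted p = 0.033). In sgXIST7 ULK2 was higher (1.16, SE 0.27, adjusted p = 0.0026), and TAX1BP1 (0.96, SE 0.19, adjusted p = 0.00084), MAP1LC3B (0.91, SE 0.24, adjusted p = 0.0064), RB1CC1 (0.63, SE 0.12, adjusted p = 0.00042), PIK3C3 (0.46, SE 0.14, adjusted p = 0.017) and BECN1 (0.28, SE 0.11, adjusted p = 0.041) also passed, while ATG3 was lower (-0.37, SE 0.12, adjusted p = 0.021). In sgXIST9 ATG9A was lower by 0.94 (SE 0.15, adjusted p = 0.00013) and TFE3 by 0.55 (SE 0.11, adjusted p = 0.0012), and TFEB was higher by 1.25 (SE 0.35, adjusted p = 0.012). The TFEB call was lost without sgXIST9 hypoxia replicate 3 (adjusted p up to 0.13). In hypoxia ULK2, RB1CC1, MAP1LC3B, TAX1BP1, ATG4B and ATG16L1 in sgXIST7, and ATG9A and ATG4B in sgXIST9, kept an adjusted p under 0.05 under each alternative setting run, and the other calls were lost under 1 to 7 of them.

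**Figure D4:**
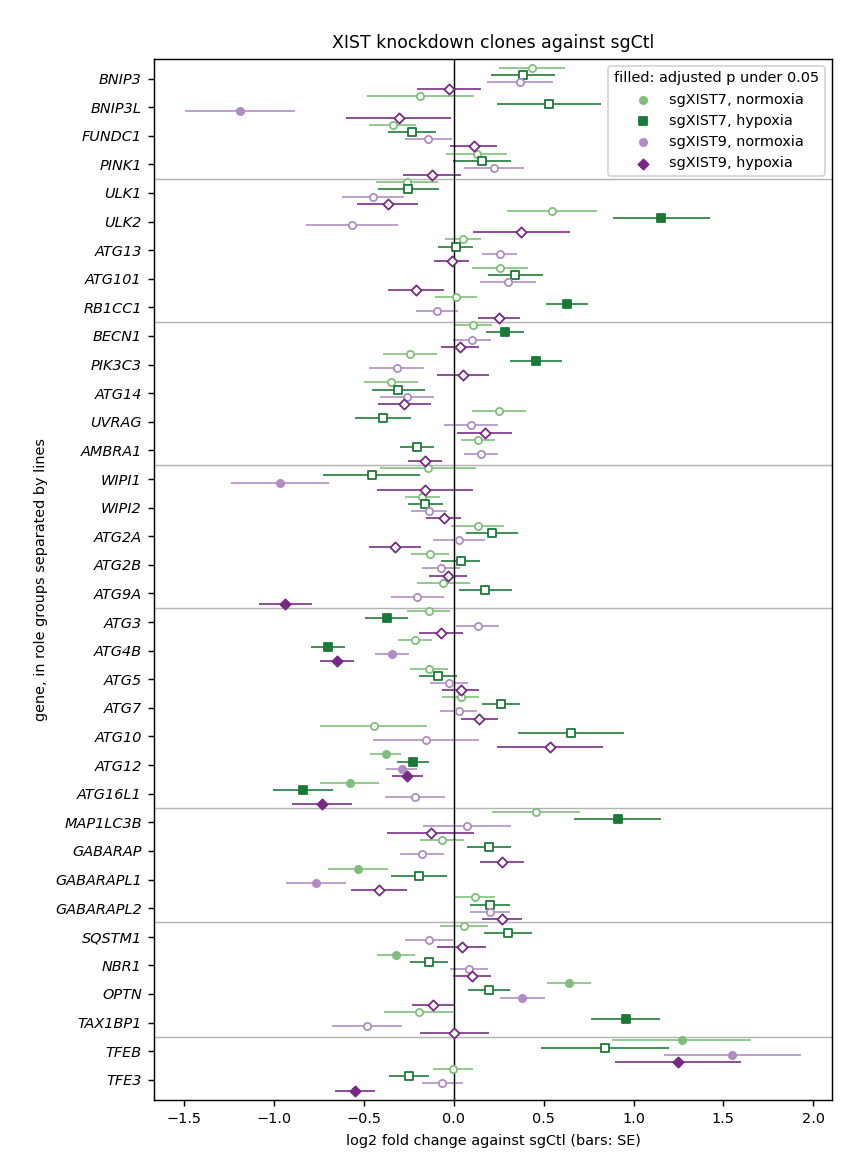
Log2 fold change of sgXIST7 and sgXIST9 against sgCtl (x axis) in normoxia and in hypoxia for each of the 36 genes (y axis), with bars of 1 SE; filled symbols have an adjusted p under 0.05. ATG4B and ATG16L1 lie left of 0 in each of the 4 comparisons, and TFEB lies right of it in each.

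The KD clones were also compared with each other. In normoxia BNIP3L (1.002, SE 0.30, adjusted p = 0.048) and ULK2 (1.11, SE 0.25, adjusted p = 0.0088) were higher in sgXIST7 than in sgXIST9 and NBR1 was lower (-0.40, SE 0.11, adjusted p = 0.021), 3 of the 36 genes, where 8.88% of all genes tested differed (5.22% higher, 3.66% lower). With median-of-ratios scaling the BNIP3L call was lost, which left 1 higher and 1 lower. In hypoxia 7 were higher and 1 lower, 22.2% of the genes, against 18% of all genes tested (8.81% higher, 9.21% lower). Those higher in sgXIST7 were ATG9A (1.11, SE 0.15, adjusted p = 5.9e-05), MAP1LC3B (1.04, SE 0.24, adjusted p = 0.0069), TAX1BP1 (0.95, SE 0.19, adjusted p = 0.0025), ULK2 (0.78, SE 0.26, adjusted p = 0.047), ATG101 (0.55, SE 0.15, adjusted p = 0.019), ATG2A (0.54, SE 0.14, adjusted p = 0.016) and RB1CC1 (0.38, SE 0.12, adjusted p = 0.03). UVRAG was lower (-0.57, SE 0.16, adjusted p = 0.018). With upper-quartile scaling 6 were higher and 2 lower. Without the hypoxia libraries numbered 3, 12 were higher and 1 lower, 36.1% against 25.6% of all genes tested. ULK2 in normoxia and ATG9A, MAP1LC3B and TAX1BP1 in hypoxia kept an adjusted p under 0.05 under each alternative setting run, and the other calls between the KD clones were lost under 3 to 7 of them.

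Whether the response to hypoxia itself differed between clones was tested as an interaction. Against sgCtl, 4 genes of sgXIST7 passed, where 9.39% of all genes tested did. TAX1BP1 rose more, by a difference in log2 fold change of 1.15 (SE 0.27, adjusted p = 0.016), as did PIK3C3, by 0.70 (SE 0.21, adjusted p = 0.045), and RB1CC1, by 0.62 (SE 0.16, adjusted p = 0.029), and ATG4B rose in sgCtl and had a log2 fold change of -0.05 in sgXIST7, a difference of -0.49 (SE 0.13, adjusted p = 0.032). The difference of TAX1BP1 passed under each alternative setting run, and those of PIK3C3, RB1CC1 and ATG4B missed the threshold under 11, 9 and 11 of them (adjusted p up to 0.12, 0.079 and 0.1). For sgXIST9 edgeR passed 0 of 36 genes, where 5.27% of all genes tested passed, with 9 genes (25%, against 21.5% of all genes) at an unadjusted p under 0.05 and 5 (13.9%, against 11% of the genes that DESeq2 gave an adjusted p) at an adjusted p under 0.05 in DESeq2. Between the KD clones ATG9A rose more in sgXIST7 by 0.97 (SE 0.21, adjusted p = 0.028), which 9 alternative settings did not pass (adjusted p up to 0.1), and was 1 gene of the 36, where 1.34% of all genes passed. BNIP3 and BNIP3L rose in all clones and their interactions did not pass, with differences from sgCtl of -0.05 (SE 0.26, adjusted p = 0.92) and 0.72 (SE 0.42, adjusted p = 0.28) in sgXIST7 and -0.40 (SE 0.26, adjusted p = 0.4) and 0.88 (SE 0.42, adjusted p = 0.23) in sgXIST9. In simulated counts the interaction of sgXIST7 with sgCtl found 44 of 100 differences of 1 on the log2 scale. Genes that did not pass may still differ. Without the hypoxia libraries numbered 3, 11 genes passed for sgXIST7 (30.6%, against 29.5% of all genes tested), 8 for sgXIST9 (22.2%, against 20.7%) and 3 between the KD clones (8.33%, against 8.93%).

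Per kilobase of exon the 36 genes were more abundant than most, with a median over genes of 10.6 CPM per kb in sgCtl in normoxia and 17.9 in hypoxia, 9.18 and 16.4 in sgXIST7 and 9.12 and 17.2 in sgXIST9, where the median over all genes tested was between 5.64 and 5.86. In sgCtl in normoxia GABARAP was highest (53.0 ± 1.9, SD, n = 3), above BNIP3 (38.1 ± 3.7), and TFEB was lowest. The exon lengths used also count exons on other contigs for SQSTM1 (26) and ATG16L1 (24), which lowers their levels per kilobase and their places in this order.

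The libraries numbered 3 of hypoxia show in these genes as well. Replicate 3 was the highest of the hypoxia libraries in each clone for BNIP3, BNIP3L, ULK2, ATG7, ATG10 and TAX1BP1, 16.7% of the 36 genes against 18.7% of all genes tested, and the lowest in each for FUNDC1, PINK1, ATG13, ATG14, UVRAG, WIPI2, ATG3 and ATG12, 22.2% against 19.3%.

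Genes that work before, beside and after the core machinery were taken from 4 further lists. In hypoxia 26.1% of all genes tested rose and 25.2% fell in sgCtl, 29.5% and 29.5% in sgXIST7 and 30.5% and 24.8% in sgXIST9. Without the hypoxia libraries numbered 3 these shares were 29.9% and 28.5%, 32.1% and 30.5%, and 33.5% and 26.8%. Of 23 other autophagy genes tested, 8 rose and 2 fell in hypoxia in sgCtl (median log2 fold change 0.21), 13 and 4 in sgXIST7 (0.44) and 10 and 3 in sgXIST9 (0.35). Leaving out the hypoxia libraries numbered 3 gave 10 and 5, 15 and 5, and 10 and 3. After MAP1LC3B2, the largest changes in sgCtl were those of TP53INP1, a stress protein that binds ATG8 proteins (1.82, 3.11 and 2.98 in sgCtl, sgXIST7 and sgXIST9), the WIPI relative WDR45 (1.32, 1.58 and 1.30) and DRAM1, a lysosomal membrane protein (1.22, 0.80 and 0.47). TMEM41B, a lipid scramblase of the endoplasmic reticulum, was next in sgXIST7 (1.27) and NRBF2, which binds the class III PI3-kinase complex, in sgXIST9 (0.72). In normoxia TP53INP1 and VMP1, a scramblase too, were lower in the KD clones than in sgCtl, TP53INP1 by 1.43 in sgXIST7 and 1.86 in sgXIST9 and VMP1 by 1.61 and 1.54 on the log2 scale.

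Of 20 other mitophagy genes tested, 4 rose and 6 fell in sgCtl (median -0.10), 5 and 8 in sgXIST7 (-0.03) and 5 and 9 in sgXIST9 (-0.37). The shares of all genes tested that rose and fell were 26.1% and 25.2%, 29.5% and 29.5%, and 30.5% and 24.8%. Leaving out the hypoxia libraries numbered 3 gave 4 and 7, 6 and 8, and 5 and 11. FUNDC2, a relative of FUNDC1, rose (1.48, 0.92 and 0.85). The inner membrane protein PHB2 fell (-0.85, -0.93 and -1.12), as did NIPSNAP1 (-1.12, -0.83 and -0.46) and NIPSNAP2 (-1.29, -0.83 and -0.95), which mark damaged mitochondria for receptors. TBK1, the kinase that activates OPTN, rose by 0.81 in sgCtl, 1.35 in sgXIST7 and 0.79 in sgXIST9. FKBP8, a mitophagy receptor of the outer membrane, rose in sgXIST7 (1.56) and sgXIST9 (0.98) and had 0.55 in sgCtl (adjusted p = 0.083), and the phosphatase PGAM5 fell by 0.92 in sgXIST9.

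Of 27 lysosome genes tested, 10 rose and 3 fell in sgCtl (median 0.17), and 7 and 3 in each of sgXIST7 (0.12) and sgXIST9 (0.13). The shares of all genes tested that rose were 26.1%, 29.5% and 30.5%, and those that fell 25.2%, 29.5% and 24.8%. Leaving out the hypoxia libraries numbered 3 gave 11 and 5, 8 and 3, and 11 and 3. The protease TPP1 (1.56, 1.76 and 2.18) and PSAP, the precursor of the saposins (1.38, 1.28 and 1.10), rose, and the heparan sulfate hydrolase NAGLU fell (-1.38, -1.50 and -0.80). The cathepsin CTSF rose as well (0.84 in sgCtl and 1.54 in sgXIST9, with sgXIST7 between them), and NPC2, which carries cholesterol, rose by 0.82 in sgXIST9. Against sgCtl in normoxia 8 of the 27 lysosome genes were higher and 1 lower in sgXIST7 (median 0.33), against 11.1% and 10.5% of all genes tested. In sgXIST9 7 were higher and 1 lower (median 0.31), against 10.5% and 11%. CTSF led in both KD clones, by 1.10 and 1.01.

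Of 27 genes of nutrient and energy signalling, 12 rose and 3 fell in sgCtl (median 0.29), 15 and 6 in sgXIST7 (0.61) and 15 and 5 in sgXIST9 (0.59). The shares of all genes tested were 26.1% and 25.2%, 29.5% and 29.5%, and 30.5% and 24.8%. Leaving out the hypoxia libraries numbered 3 gave 12 and 4, 16 and 6, and 15 and 5. DDIT4, an inhibitor of MTOR complex 1, rose by 3.19 in sgCtl, 2.56 in sgXIST7 and 3.19 in sgXIST9, and RRAGD, a GTPase that presents TFEB and TFE3 to that complex, by 2.66, 5.07 and 2.46. SESN2, which senses leucine, rose by 2.38 in sgCtl and 2.35 in sgXIST7 and had 1.22 in sgXIST9 (adjusted p = 0.054), and FOXO3, a transcription factor of stress and autophagy genes, rose by 1.60 in sgCtl. FOXO1 rose by 2.42 in sgXIST7 and MITF, a relative of TFEB, by 1.82 in sgXIST9. PRKAA2, a catalytic subunit of AMPK, passed in both KD clones: it had 1109 to 1326 counts in sgCtl in normoxia and 1259 to 1472 in hypoxia, 36 to 127 and 457 to 801 in sgXIST7, and 0 to 2 and 90 to 140 in sgXIST9, a level in normoxia that gives no fold change.

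**Figure D5:**
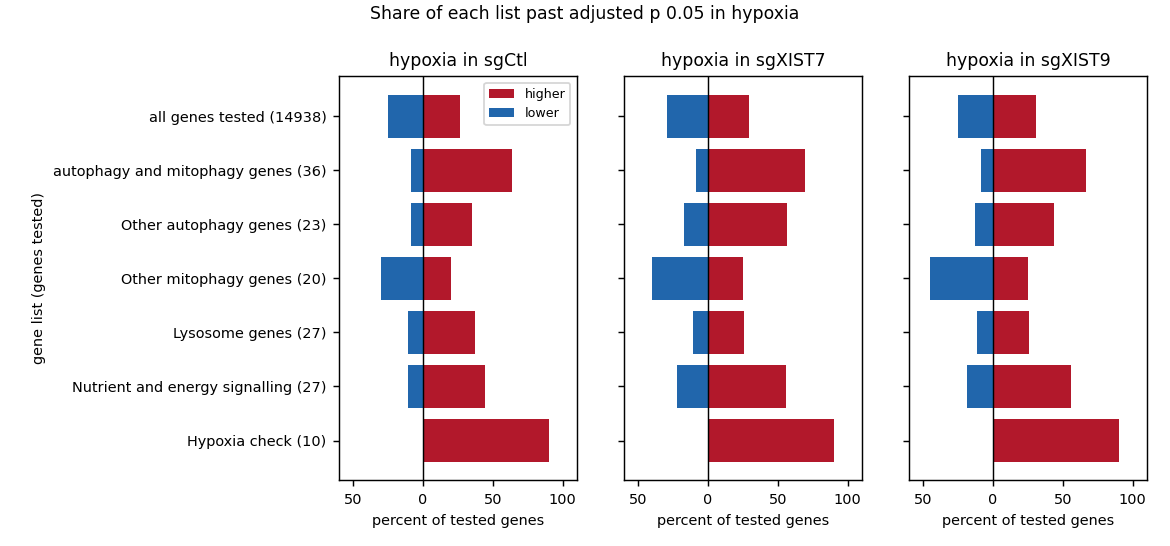
Percent of the tested genes of each list that were higher (red, to the right) or lower (blue, to the left) in hypoxia at an adjusted p under 0.05, in each clone, with the number of genes tested in brackets. Of the lists drawn, the autophagy and mitophagy genes have the largest share higher after the 10 genes of the hypoxia check, 63.9% in sgCtl, 69.4% in sgXIST7 and 66.7% in sgXIST9. All lists were chosen with earlier results of these data known, so their order may reflect that choice.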

How the data were processed

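RNA from 18 libraries of OVCAR3-KRAB cells was analysed, 3 in each of 6 groups (sgCtl, sgXIST7 and sgXIST9, in normoxia and at 1% oxygen for 24 h), grouped by the labels. The authors trimmed reads with Trimmomatic, checked them with FastQC, aligned them to hg38 with HISAT2, and deposited whole-number counts per gene from featureCounts, with no normalization. Versions and the strand setting are not given in the sources used here. Of 28279 lines, 2 that were broken and held 0 counts were left out, and no row lacked a gene name.

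Counts were tested with edgeR 4.0.16 (limma 3.58.1, R 4.3.3): genes kept by filterByExpr (at least 10 counts, 15 in total), TMM scaling, 1 quasi-likelihood fit over all 6 groups, and Benjamini-Hochberg adjustment over the 14938 genes tested in each of 12 comparisons. A gene changed at an adjusted p under 0.05. The stricter call adds the thresholds of the study's methods. CPM are counts scaled to the library's total times its TMM factor. The common dispersion was 0.0321, and total counts per library were 11794375 to 24906936. With 3 libraries against 3, an exact permutation test of a single gene cannot go below 0.1 (two-sided), so none is given.

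The 37 genes and the further gene lists were chosen with earlier results of these data known. Values in every library are given for genes that passed the stricter call in any comparison, changed in the same direction in all 3 clones in hypoxia, or passed an interaction. Other members are given by counts and ranges, and the 4 changed genes with the largest absolute log2 fold change in each clone in hypoxia are named from each further list, with others of the list beside them. 1 gene of the lists is not reported here.

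The fits were tested on simulated counts, with 100 genes changed by 1 and 100 by 2 on the log2 scale in sgCtl hypoxia. The hypoxia comparison of sgCtl recovered 74 and 90 of them, and called 3 of 14738 unchanged genes. The interaction of sgXIST7 with sgCtl recovered 44 and 79. Promoters are from the RefSeq table of GRCh38.p14, and shared sequence was taken from the transcripts of GENCODE v44. Overlaps of exons were taken from the hg38 exon positions deposited with the counts. Alternatives were other scaling and filters, DESeq2 1.42.0, fits of the compared groups alone, the replicate number as a block, each library left out in turn, and the 3 hypoxia libraries numbered 3 left out. Same-numbered libraries correlated above 0.1 in every pair in 2 of 15 pairs of groups, and the labels do not say that a number marks a shared culture, so the numbers were not taken to pair the libraries.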

Additional observations from a re-analysis of the deposited data

Results flagged for a closer look

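The response to hypoxia differed between clones for 5 of the 36 genes by a test of the interaction itself. For sgXIST7 against sgCtl 4 genes passed, 11.1% of the 36 against 9.39% of all genes tested, and between the KD clones 1, 2.78% against 1.34%. In sgXIST7 against sgCtl the difference in log2 fold change was 1.15 for TAX1BP1, 0.701 for PIK3C3, 0.619 for RB1CC1 and -0.486 for ATG4B. In sgXIST7 against sgXIST9 it was 0.968 for ATG9A. TAX1BP1 passed under each alternative setting that kept the threshold, and the other 4 missed it under 9 to 11 of them. None of the 5 passed the stricter call. Each clone carries its own guide, and guide and clone cannot be told apart.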

How the results depend on the processing

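The counts of changed genes in the 3 hypoxia comparisons stayed between 21 and 29 in every alternative that kept the threshold, and none of the 126 calls of the 36 genes over the 12 comparisons reversed its direction in any alternative. Genes of the further lists were recomputed only without the hypoxia libraries numbered 3, as counts. With the stricter call the counts were 10 in sgCtl, 16 in sgXIST7 and 9 in sgXIST9 for hypoxia, 0 and 2 in sgXIST7 and sgXIST9 against sgCtl in normoxia and 1 and 0 in hypoxia, 1 and 2 between the KD clones in normoxia and hypoxia, and 0 in each interaction.

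The comparisons between clones moved more. With only the compared groups in the fit, 11 genes changed in sgXIST7 and 18 in sgXIST9 against sgCtl in normoxia (30.6% and 50% of those tested, where 32.1% and 46.1% of all genes did). In hypoxia 6 and 2 did (16.7% and 5.56%, against 23.5% and 12.8% of all genes). Between the KD clones 6 changed in normoxia and 5 in hypoxia (16.7% and 13.9%, against 19.3% and 7.98%). The interactions of sgXIST7 and sgXIST9 with sgCtl gave 1 and 1 (2.78% each, against 5.24% and 4.18%). Without the 3 hypoxia libraries numbered 3 the counts in hypoxia were 19 in sgXIST7 against sgCtl (52.8%, against 50.8% of all genes) and 13 between the KD clones (36.1%, against 25.6%). The interactions then gave 11, 8 and 3 (30.6%, 22.2% and 8.33%, against 29.5%, 20.7% and 8.93%). DESeq2 gave 13 genes between the KD clones in hypoxia (35.1%, against 20.1% of all genes) and 5 in the interaction of sgXIST9 (13.9%, against 11%). That interaction gave 1 gene with median-of-ratios scaling and 1 with a mean CPM of at least 1 (2.78% each, against 5.92% and 6.2%). The interaction of sgXIST7 gave 2 with no filter (5.41%, against 4.39%). The causes of these shifts were not tested.

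Leaving out 1 library at a time gave 23 to 26 genes for hypoxia in sgCtl, 26 to 28 in sgXIST7 and 21 to 25 in sgXIST9. Without sgCtl normoxia replicate 1 the 23 genes were 63.9%, against 42.8% of all genes tested. Without sgXIST7 normoxia replicate 2 the 26 were 72.2%, against 55.2%, and without sgXIST9 normoxia replicate 1 the 21 were 58.3%, against 47.2%. Against sgCtl in normoxia it gave 2 to 4 in sgXIST7, fewest without sgCtl replicate 3 (5.56%, against 15% of all genes tested). In sgXIST9 it gave 3 to 6, fewest without sgXIST9 replicate 3 (8.33%, against 15.9%). In hypoxia it gave 7 to 19 in sgXIST7 and 5 to 11 in sgXIST9, both highest without sgCtl replicate 3. Those highest counts were 52.8% and 30.6% of the genes, against 52.2% and 40.9% of all genes tested. Between the KD clones leaving out 1 library gave 1 to 2 in normoxia, fewest without sgXIST7 replicate 1 (2.78%, against 7.19% of all genes tested). In hypoxia there were 3 to 13 between them, fewest without sgXIST9 replicate 1 and most without sgXIST9 replicate 3. Without sgXIST7 replicate 1 there were 12 in hypoxia (33.3%, against 22.6%), and without sgXIST7 replicate 2 there were 4 (11.1%, against 10.1%). The interactions gave 1 to 9 for sgXIST7 and 0 to 8 for sgXIST9, both highest without sgCtl hypoxia replicate 3. The 9 and 8 were 25% and 22.2% of the genes, against 27% and 18.3% of all genes tested. Between the KD clones the interaction gave 0 to 2, highest without sgXIST9 hypoxia replicate 3.

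With the replicate number as a block no call was lost. The interaction of sgXIST9 then gave 1 gene (2.78%, against 7.61% of all genes tested) and that between the KD clones 2 (5.56%, against 3.11%). Correlations of same-numbered libraries ranged from -0.0727 to 0.566. Intervals and tests cover the spread of 3 libraries a group. TFEB, with 6 to 52 counts, and MAP1LC3A, with at most 11, are limited by depth.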
